A study of Mus musculus with 6 samples.

Results

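The 10 transcription factor genes Gata1, Gata2, Klf1, Tal1, Zfpm1, Nfe2, Gfi1b, Lmo2, Runx1 and Fli1, chosen by name as the core regulators of red cell and platelet development, were read from a table of 36083 mouse genes. RNA-seq had been run on leukemic cells of a blast crisis chronic myeloid leukemia (bcCML) model, with 3 libraries labelled WT and 3 labelled Sdc1-/-. In both groups KLS cells, the c-kit+, lineage-negative, Sca1+ fraction of bone marrow that holds the stem cells, were taken from donors on the B6 background and infected with the oncogenes BCR-ABL and NUP98-HOXA9. Double-positive cells were transplanted into NSG mice, an immunodeficient strain (the study's general methods name another recipient), and all recipients were killed at the same time. Lineage-negative (Lin-) leukemic cells were then sorted from the spleen. The groups differed by donor genotype, wild type or Sdc1-/-, a germline loss of the heparan sulfate proteoglycan syndecan-1 that every cell of the donor carries. The labels give no age, sex or treatment other than this. RNA of 4 Y-linked genes was also far higher in the Sdc1-/- libraries, and Sdc1 mRNA was higher there too, both described near the end. Genotype and the sex of the cells therefore cannot be told apart in any difference below. The study's legends describe the WT libraries as technical replicates, so the SDs and p-values below may hold technical variation alone.

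These factors work as a network. GATA2, RUNX1, FLI1, TAL1 and LMO2 are known from stem and progenitor cells. As cells commit to the red cell and platelet fates, GATA1 replaces GATA2 at many sites, and it acts there with its cofactor FOG1 (the product of Zfpm1) and with a complex in which LMO2 and LDB1 bridge GATA1 and TAL1. KLF1 and FLI1 oppose each other at the branch between red cells and megakaryocytes. NF-E2 drives late megakaryocyte and globin genes, and GFI1B is a repressor that is required in both lineages. PU.1, encoded by Spi1, is the myeloid factor that antagonizes GATA1.

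Short stretches of the members' promoters show where sequences that such factors recognize lie in the genes of the network itself. RefSeq windows of 250 bases before and 50 after a transcript start, on GRCm38.p6, were at hand for 7 members and 10 starts. Each stretch is given 5′ to 3′ on the strand of its gene, and its capitals mark a match of the GATA type, of the E-box (CAGNTG, bound by TAL1 and its partners) or of the KLF type (CACCC). Positions are those of the match's leftmost base, with the start itself as 0. Only a selection of the matches is printed. Others in the same windows, such as CACCC at -138 in Tal1 and at -184 in Gfi1b, are left out. All matches in the windows of Gata2, Runx1 and Zfpm1 are left out as well.
Klf1, CACCC at -114, chr8:84901855-84901884, plus strand: cacatatcgcacaCACCCctcctttgccgt
Klf1, GATA at -80, chr8:84901890-84901919, plus strand: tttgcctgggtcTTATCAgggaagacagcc
Klf1, E-box at -59, chr8:84901911-84901940, plus strand: aagacagccaatCAGATGtgggcagacagg
Tal1, GATA at -205, chr4:115056209-115056238, plus strand: ctatagagtcttTTATCTttgagcaattcc
Gfi1b, GATA at -120, chr2:28622085-28622114, minus strand: tctgtgaagtttTGATAAgcaaatgtggct
Gata1, CACCC at -74, chrX:7967968-7967997, minus strand: caaggaggcggcaCACCCcctcccctgcac
Gata1, CACCC at -52, chrX:7967946-7967975, minus strand: ccctgcactgcccCACCCactggggcacca

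On either strand, a GATA match (AGATAA or instead AGATAG, with TGATAA as well as the letters TGATAG also taken) lay in 3 of the 10 windows, those of Klf1, Tal1 and Gfi1b, against 29.8% of 32851 mouse promoter windows. An E-box lay in 4 windows against 51.4%, CACCC in 7 against 57.5% and the RUNX sequence TGNGGT in 3 against 45.8%. The NF-E2 type sequence TGAGTCA was in 0 windows against 5.2%. Within the members' windows no match to one sequence overlapped a match to another. These are matches of letters and not measured binding.

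All 10 genes were expressed. Values are TPM, which scale transcript counts for length and for the total of a library, that had been rescaled between libraries, and they are called levels here. Zfpm1, Lmo2, Nfe2 and Gata2 had the highest levels, with means over the 6 libraries at percentiles 91.2 to 93.2 of the 12155 genes that reached a mean level of 1 and were tested. Gata1, the factor that heads the erythroid programme, held place 5 of the 10 in each library. Fli1 and Runx1 were the lowest, at percentiles 47.4 and 46.9.

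The WT libraries had Gata2 or Nfe2 in the top place, and the 3 Sdc1-/- libraries had Lmo2 there. Some neighbours in the order of a group's mean levels had ranges that overlapped. In WT these were Gata2 and Nfe2, Lmo2 and Zfpm1, Klf1 and Tal1, and Fli1 and Runx1. In Sdc1-/- they were Nfe2 and Zfpm1, Gfi1b and Klf1, Klf1 and Tal1, and Runx1 and Fli1. Although the ranges of Runx1 and Fli1 overlapped there, Runx1 was above Fli1 within each Sdc1-/- library. All other neighbours, such as Lmo2 over Gata2 in Sdc1-/- and Zfpm1 over Gata1 and Gata1 over Gfi1b in both groups, were apart in every library.

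**Figure D1:**
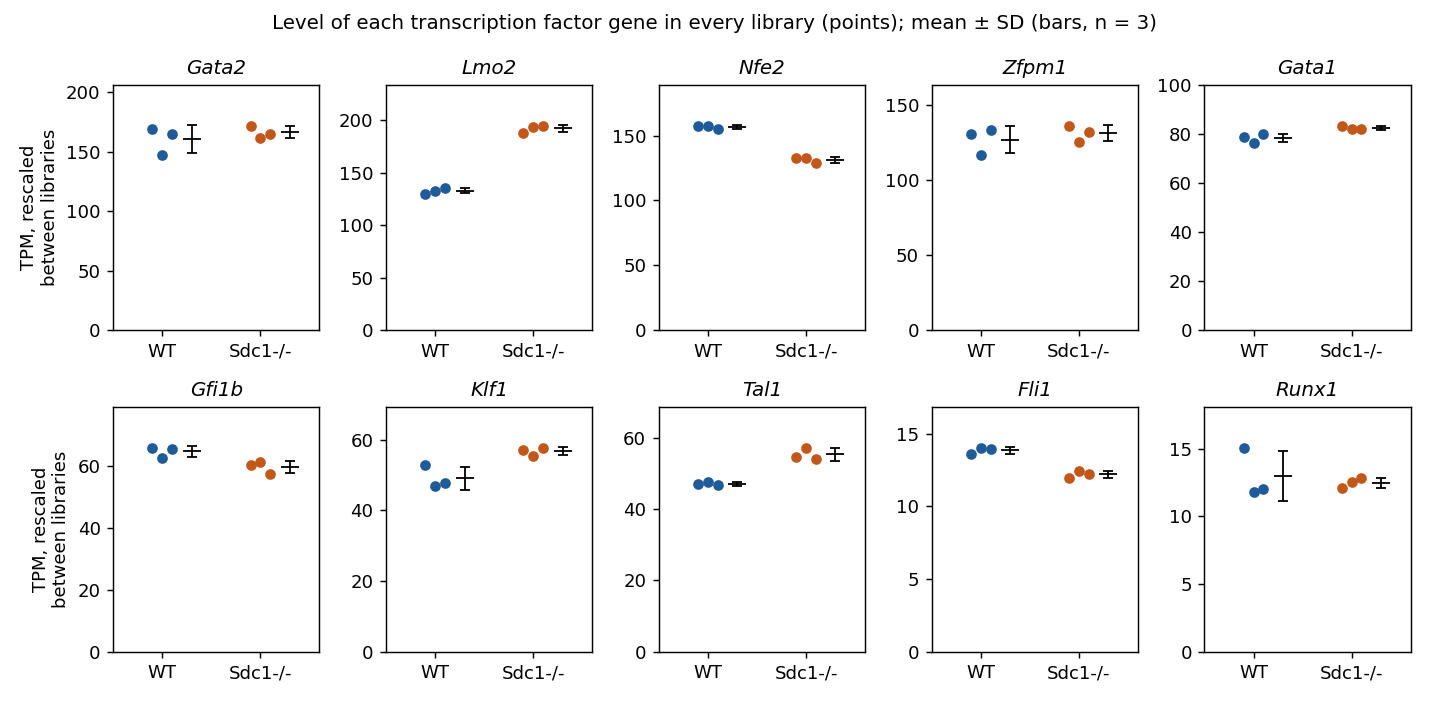
Level of each of the 10 genes (TPM rescaled between libraries, vertical axis from 0) in the 3 WT and 3 Sdc1-/- libraries; points are libraries and bars are the mean ± SD. The points of Lmo2, Tal1, Klf1 and Gata1 lie higher in Sdc1-/- and those of Nfe2, Gfi1b and Fli1 lower, with no overlap, while those of Gata2, Zfpm1 and Runx1 overlap.

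Lmo2 changed most of the 10 genes. LMO2 is a small protein without DNA binding of its own that bridges the TAL1 and GATA factors (gene ENSMUSG00000032698, chr2:103957986-103981878, GRCm38, plus strand). Its level was 130.2, 133 and 135 in WT replicates 1 to 3 and 188, 194 and 195 in Sdc1-/- replicates 1 to 3. The lowest Sdc1-/- library was thus well above the highest WT library. From a mean of 133 ± 2.5 (SD, n = 3) it rose to 192 ± 3.5 (SD, n = 3), a log2 fold change of 0.53 ± 0.030 (SE; limma, adjusted p = 1.1e-05). A gene on the opposite strand, 4931422A03Rik, overlaps the Lmo2 locus and had levels of 0.73 to 2.06.

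Tal1 encodes the basic helix-loop-helix factor of the same complex (ENSMUSG00000028717, chr4:115056426-115071755, plus strand). Its levels were 47.0, 47.7 and 46.6 in WT and 54.7, 57.3 and 54.0 in Sdc1-/-. The WT libraries lay close together, and each Sdc1-/- library was higher. The rise was 0.23 ± 0.034 on the log2 scale (SE; limma, adjusted p = 0.0011).

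Klf1 encodes the erythroid Krüppel-like factor, an activator of beta-globin (ENSMUSG00000054191, chr8:84901928-84905291, plus strand). It stood at 52.8, 46.9 and 47.6 in WT and at 57.1, 55.5 and 57.8 in Sdc1-/-. WT replicate 1 was the highest of its group and still below each Sdc1-/- library. Klf1 rose by 0.21 ± 0.050 on the log2 scale (SE; limma, adjusted p = 0.0095).

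Gata1, on chromosome X, is needed for the maturation of red cells, megakaryocytes and mast cells (ENSMUSG00000031162, chrX:7959260-7978071, minus strand). Its levels were 78.7, 76.5 and 80.1 in WT and 83.4, 82.3 and 82.1 in Sdc1-/-. The ranges did not overlap, but the ratio of the means was only 1.05 and the gene was not called, with a log2 fold change of 0.074 (95% interval 0.0022 to 0.15; limma, adjusted p = 0.070).

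Gata2 keeps progenitors from maturing and is retained in mast cells (ENSMUSG00000015053, chr6:88193891-88207032, plus strand). It had levels of 169, 147 and 165 in WT and of 172, 162 and 165 in Sdc1-/-. WT replicate 2 was the lowest of the 6, and the groups overlapped. No difference was called, and the interval of the log2 fold change ran from -0.079 to 0.19 (limma, adjusted p = 0.44).

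Zfpm1, the FOG1 gene, encodes the zinc finger cofactor that binds the GATA factors (ENSMUSG00000049577, chr8:122282141-122337251, plus strand). Its levels of 130.4, 117 and 134 in WT overlapped those of 136, 125 and 132 in Sdc1-/-. As for Gata2, replicate 2 was the lowest in each group. The log2 fold change lay between -0.089 and 0.19 (95% interval; limma, adjusted p = 0.50), and reads may be split with Gm20388, an overlapping gene on the same strand with levels of 14.7 to 18.6.

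Nfe2 fell. It encodes the hematopoietic subunit of NF-E2, which pairs with a small MAF protein (ENSMUSG00000058794, chr15:103248212-103258403, minus strand). The WT libraries had levels of 158, 158 and 155 and the Sdc1-/- libraries levels of 133, 133 and 129. No WT library came near the Sdc1-/- range. The log2 fold change was -0.25 ± 0.028 (SE; limma, adjusted p = 2.5e-04).

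Gfi1b is a repressor that recruits the LSD1 and CoREST complex and is required in both lineages (ENSMUSG00000026815, chr2:28609450-28621982, minus strand). Its levels were 65.8, 62.6 and 65.5 in WT and 60.1, 61.1 and 57.4 in Sdc1-/-. The gap between the groups was narrow, since WT replicate 2 was only slightly above Sdc1-/- replicate 2. As deposited it was called lower, at -0.12 ± 0.038 on the log2 scale (SE; limma, adjusted p = 0.030), but with every library set to the same sum the value was 0.029 (adjusted p = 0.50). The call was also lost in 4 of the 6 fits that left out a library, with adjusted p from 0.055 to 0.092 without WT replicate 1, WT replicate 3, Sdc1-/- replicate 1 or Sdc1-/- replicate 3.

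Fli1 encodes an ETS factor of megakaryocyte genes (ENSMUSG00000016087, chr9:32422204-32542861, minus strand). The levels of 13.6, 14.1 and 13.9 in WT were all above those of 12.0, 12.5 and 12.2 in Sdc1-/-. It was called lower, by -0.17 ± 0.039 on the log2 scale (SE; limma, adjusted p = 0.0080), and was not called when every library was set to the same sum (-0.031, adjusted p = 0.52).

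Runx1 encodes a core binding factor that acts from the stem cell to the megakaryocyte (ENSMUSG00000022952, chr16:92601466-92826149, minus strand). Its levels were 15.1, 11.8 and 12.0 in WT and 12.1, 12.5 and 12.8 in Sdc1-/-. A single WT library, replicate 1, lay above the rest. The log2 fold change of -0.044 was not called (interval -0.26 to 0.17; limma, adjusted p = 0.69), and its sign turned to 0.061 without that library and to 0.093 with equal library sums.

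Of the 10 genes, then, 3 were called higher (Lmo2, Tal1 and Klf1), 3 lower (Nfe2, Fli1 and Gfi1b) and 4 not at all (Gata1, Gata2, Zfpm1 and Runx1). Across all 12155 tested genes 60.7% were called, 29.3% higher and 31.3% lower, so the members' counts were close to the background and are not a result about the network as such. The groups did not overlap in 7 of the 10 genes, against 66.7% of all tested genes. With 3 against 3 libraries, the exact permutation test of a single gene could not go below p = 0.1, which it reached for those 7 (two-sided).

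The scale of the libraries bears on these counts. The deposited levels sum to 944973 to 951814 in the Sdc1-/- libraries and to 1048870 to 1058260 in WT. Setting every library to a sum of 1000000 moved the median log2 fold change of all tested genes from -0.0097 to 0.12, and 43.5% of genes were then called higher and 19.5% lower. On that scale 6 members were called higher, Gata1 (0.22, adjusted p = 5.8e-04), Gata2 (0.20, adjusted p = 0.015) and Zfpm1 (0.20, adjusted p = 0.021) joining Lmo2, Tal1 and Klf1, and only Nfe2 was called lower (-0.11, adjusted p = 0.0096). Equal sums multiply each library by a constant, so differences measured from the median of all genes stay nearly the same by construction. They are given as a description and are no check of the results. Lmo2 stood 0.54 above that median as deposited and 0.56 above it with equal sums, Tal1 0.24 and 0.25, and Klf1 0.22 and 0.23. Nfe2 stood at -0.24 and -0.23 relative to it, Fli1 at -0.16 and -0.15 and Gfi1b at -0.11 and -0.094.

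**Figure D2:**
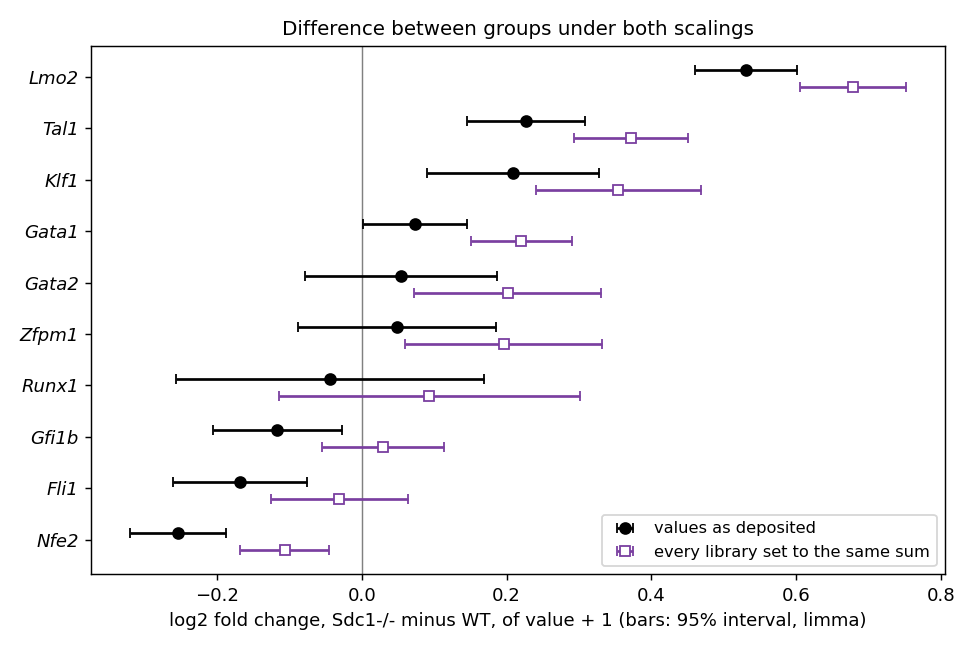
Log2 fold change (Sdc1-/- minus WT, of level + 1) of the 10 genes with 95% intervals from limma, for the values as deposited (filled circles) and with every library set to the same sum (open squares). Lmo2, Tal1 and Klf1 lie above 0 and Nfe2 below 0 on both scales, whereas Gfi1b goes from -0.12 to 0.029 and Runx1 from -0.044 to 0.093.

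The ratio of a pair of factors was taken within each library as the log2 of (level + 1) over (level + 1), in which the scale of a library nearly cancels for abundant genes and less so for low ones such as Fli1 and Gfi1. The Gata1 to Gata2 ratio overlapped between groups, with a log2 value of -1.02 ± 0.081 in WT and -1.0 ± 0.032 in Sdc1-/- (SD, n = 3; difference 0.020, exact permutation p = 0.9). The ratio of Zfpm1 to Gata1 overlapped as well, at 0.68 ± 0.072 and 0.66 ± 0.050 (exact permutation p = 0.6).

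The ratios of the opposing pairs differed without overlap. Klf1 over Fli1, the erythroid factor over the megakaryocyte factor, had log2 values of 1.88, 1.67 and 1.70 in WT and of 2.16, 2.07 and 2.15 in Sdc1-/-. Gata1 over Spi1 was -0.49, -0.56 and -0.44 in WT and 0.35, 0.48 and 0.60 in Sdc1-/-. Spi1 was thus the more abundant transcript of the pair in WT and Gata1 the more abundant in Sdc1-/-. As deposited, Gata1 gave 0.074 of the difference of 0.97 and Spi1 the rest. Spi1 levels were 111, 114 and 109 in WT and 65.3, 58.9 and 54.0 in Sdc1-/- (limma, log2 fold change -0.90, adjusted p = 3.8e-05). The split between the 2 genes, unlike their ratio, depends on the scale of the libraries. With equal sums the log2 fold change was 0.22 for Gata1 and -0.75 for Spi1. Gata2 over Spi1 differed by 0.95, and Gfi1b over its granulocytic relative Gfi1 by 0.26 (0.30 with 0.1 added in place of 1). Each of these 4 ratios reached an exact permutation p = 0.1, the smallest that 3 against 3 allows (two-sided; 0.15 after Benjamini-Hochberg adjustment over the 6 ratios).

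**Figure D3:**
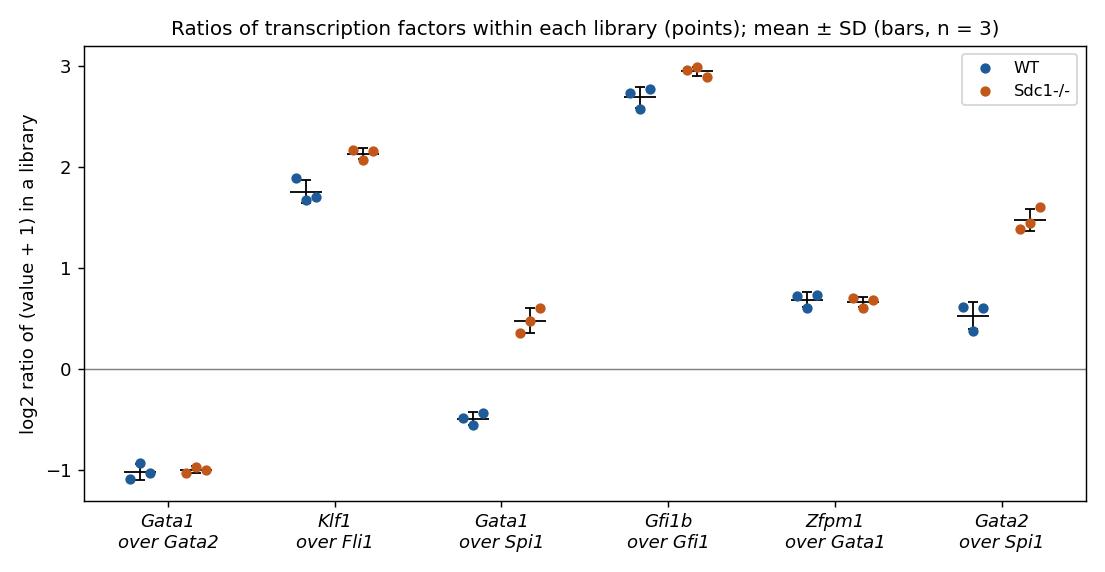
Log2 ratio of 2 factors in each library (points; horizontal and vertical bars, mean ± SD of 3 libraries), for 6 pairs in WT and Sdc1-/-. Gata1 over Spi1 is below 0 in the WT libraries and above 0 in the Sdc1-/- libraries, while Gata1 over Gata2 and Zfpm1 over Gata1 overlap between groups.

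Among 28 partners of the GATA1, TAL1 and RUNX1 complexes, all tested, 13 were called higher and 5 lower, against 29.3% and 31.3% of all tested genes (median log2 fold change 0.13; 18 higher and 3 lower with equal sums, against 43.5% and 19.5%). The share called in either direction was thus near that of all genes, 60.7%. Rises and falls in each list are ranked on the log2(level + 1) scale. The largest rise was that of Ldb1, the LIM domain binding protein that holds the LMO2 complex together, with levels of 71.0, 68.2 and 70.4 in WT and 118, 112 and 112 in Sdc1-/- (0.70 ± 0.034 SE; limma, adjusted p = 6.8e-06). Lmo4, a LIM-only relative of Lmo2 that also binds LDB1, had the largest fall, from 34.2 ± 1.5 to 20.1 ± 1.5 (SD, n = 3; log2 fold change -0.74). Lmo2 and Ldb1 were thus higher and Lmo4 lower in the same libraries. The chromatin subunits Rbbp4 and Mta2 had the highest levels of the list, with log2 fold changes of -0.10 (not called) and -0.12 (called) as deposited and of 0.049 and 0.028, neither called, with equal sums.

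The paralogs of the members went both ways. Of 24 paralogs, 14 reached a mean level of 1. Of these, 4 were called higher, a share close to the 29.3% of all tested genes, and 7 lower, against 31.3% (median -0.13). The counts with equal sums were 4 higher and 5 lower, against 43.5% and 19.5%. Erg, the closest relative of Fli1, rose from 11.2 ± 0.37 to 21.0 ± 1.1 (SD, n = 3; log2 fold change 0.85; limma, adjusted p = 1.5e-05), so that the more abundant of the pair was Fli1 in WT and Erg in Sdc1-/-. Klf2 fell from 9.25 ± 0.51 to 3.12 ± 0.26 (SD, n = 3; log2 fold change -1.32). The most abundant paralogs were Lyl1, the relative of Tal1, at 40.6 in WT and 57.8 in Sdc1-/- (0.50, called), and the stress response factor Nfe2l2, which was called lower at -0.15 as deposited and not with equal sums (-0.0096).

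A heptad of factors that bind together in stem and progenitor cells is made up of Gata2, Runx1, Fli1, Tal1, Lmo2, Erg and Lyl1. Of these 7 genes, 4 were called higher (Erg, Lmo2, Lyl1 and Tal1), against 29.3% of all tested genes, and 1, Fli1, lower, against 31.3% (median 0.23). With equal sums 5 were called higher, against 43.5%, and 0 lower, against 19.5%. The list is short, and 60.7% of all tested genes were called in either direction. It adds no new gene, since Erg and Lyl1 were counted among the paralogs and the others are members. Of 22 other regulators of red cells and megakaryocytes, 9 were called higher, against 29.3% of all tested genes, and 7 lower, close to 31.3% (median 0.059). For equal sums the counts were 14 higher and 5 lower, against 43.5% and 19.5%. On the log2(level + 1) scale Meis1, a homeobox cofactor of HOXA9, had the largest rise, from 13.1 ± 0.35 to 28.6 ± 1.1 (SD, n = 3; log2 fold change 1.07), and E2f2, an erythroid cell cycle factor, the largest fall (-0.55). By the plain ratio of mean levels Sox6 (0.58) was below E2f2 (0.66). The most abundant were Ikzf1, which fell (-0.32), and Myb, a factor of immature progenitors, which rose (0.37).

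Many of the erythroid genes that these factors are known to switch on fell. Of 37 listed, 36 were tested (Ahsp was not matched by symbol). Among them 22 were called lower and 12 higher, against 31.3% and 29.3% of all tested genes. The median was -0.29 on the log2 scale, against -0.0097 over all tested genes. Equal sums gave 18 lower and 13 higher, against 19.5% and 43.5%. The globins, which carry oxygen in red cells, fell. Hbb-bt went from 3410 ± 137 to 2006 ± 61.3 and Hbb-bs from 2973 ± 368 to 1862 ± 105 (SD, n = 3), and Hba-a2 had the largest fold, from 895.5 ± 102 to 330.4 ± 7.6 (log2 fold change -1.43). These globin genes are near-identical copies, so reads may have been divided between them. Kel, which encodes a blood group protein of the red cell membrane, had the largest rise, with levels of 9.79, 10.4 and 11.9 in WT and 25.7, 22.1 and 27.2 in Sdc1-/- (log2 fold change 1.15 ± 0.094, SE; limma, adjusted p = 5.9e-05).

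Of 28 megakaryocyte genes 24 were tested, of which 17 were called lower, against 31.3% of all tested genes, and 5 higher, against 29.3% (median -0.37; 13 lower and 6 higher with equal sums, against 19.5% and 43.5%). The largest rise was that of Vwf, von Willebrand factor, with levels of 4.87, 3.60 and 3.96 in WT and 14.1, 15.3 and 15.1 in Sdc1-/- (log2 fold change 1.63; limma, adjusted p = 1.2e-05). Thbs1, thrombospondin, had the largest fall, from 6.86 ± 0.078 to 2.21 ± 0.089 (SD, n = 3; -1.29). Of the most abundant genes Cd63, a granule tetraspanin, fell (-0.45) and Pf4, platelet factor 4, rose (0.20).

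**Figure D4:**
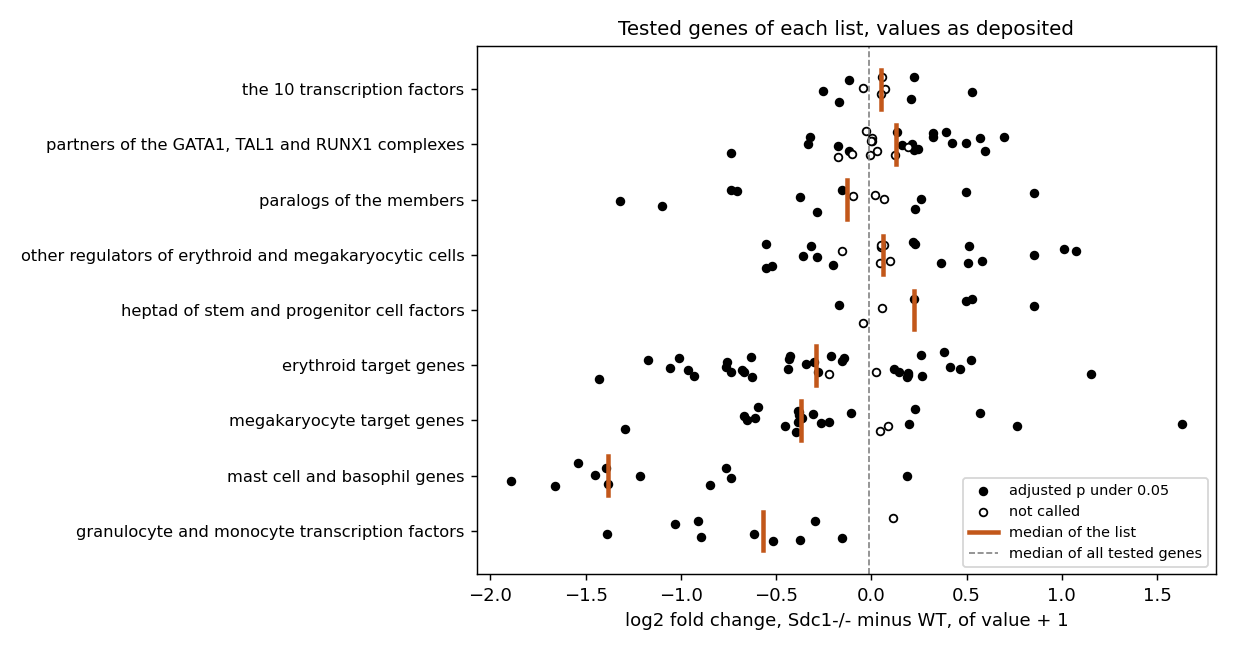
Log2 fold change (Sdc1-/- minus WT, of level + 1, values as deposited) of every tested gene in each list; filled points were called by limma at an adjusted p under 0.05, open points were not, thick bars are list medians and the dashed line is the median of all tested genes. The 10 factors lie around 0 (median 0.051), the erythroid and megakaryocyte genes mostly below it (medians -0.29 and -0.37), and the mast cell and basophil genes lowest (-1.38).

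Genes of neighbouring myeloid fates, which share GATA2 or are opposed by GATA1, were largely lower. Of 14 mast cell and basophil genes 11 were tested and 10 called lower, against 31.3% of all tested genes (median -1.38). The count was also 10 with equal sums, against 19.5%. Hdc, the histamine-forming enzyme, went from 206.5 ± 6.9 to 54.9 ± 3.0 (SD, n = 3; -1.89) and the basophil protease Prss34 from 146 ± 3.9 to 52.9 ± 2.3. Kit alone was called higher (0.18, adjusted p = 0.018, limma), a call that was lost without WT replicate 1, WT replicate 3 or Sdc1-/- replicate 2 (adjusted p from 0.055 to 0.060). Of 17 granulocyte and monocyte transcription factors 10 were tested, 9 called lower, against the same 31.3% (median -0.57). At equal library sums 7 were called lower and 1 higher, against 19.5% and 43.5%. Id2, an inhibitor of helix-loop-helix factors, had the largest fall, from 38.3 ± 1.4 to 14.0 ± 0.55 (SD, n = 3; -1.39).

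The summed levels of cell type markers moved with the group beside these results. The sort removed cells that stain for TER119, Gr1, CD11b and lymphoid antigens, yet the 7 erythroid markers matched by symbol summed to 9447 to 10140 in WT and 5200 to 5601 in Sdc1-/-, with 7 of 7 called lower. The 10 neutrophil markers summed to 13380 to 14270 and 5124 to 5249 (10 of 10 lower), the 6 mast cell and basophil markers to 610 to 626 and 198 to 206 (6 of 6 lower), and the 10 monocyte markers to 564 to 586 and 247 to 254 (8 of 9 tested lower). The 8 megakaryocyte markers did not separate the groups in their sum, at 509 to 537 and 521 to 534. Of the 7 tested, 2 were called higher and 5 lower, and with equal sums 2 higher and 3 lower. All counts in this paragraph stand beside 31.3% of all tested genes called lower and 29.3% higher, or 19.5% and 43.5% with equal sums. The part of these markers in the results on the 10 factors was not tested, and in bulk RNA fewer cells of a type and less RNA per cell cannot be told apart.

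Stem and progenitor markers summed to 426 to 446 in WT and 450.2 to 467 in Sdc1-/-. Cd48 was the larger share, with means of 262 and 264, and was not called. Of the 8 markers 4 were called higher (Kit, Myb, Slamf1 and Meis1) and 3 lower (Cd34, Flt3 and Ly6a), against 29.3% and 31.3% of all tested genes. The 7 T cell markers summed to 7.8 to 9.7 in WT and 16.1 to 17 in Sdc1-/-, of which Lck was the larger share (1 of 2 tested called higher), while Cd3e, Cd3g, Cd4 and Cd8a averaged under 0.1 in both groups. The 8 endothelial and stromal markers summed to 25.8 to 27.3 and 27.9 to 28.5, nearly all from Col1a2 and Pdgfrb, and Cdh5 and Kdr were under 0.1.

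The targeted gene was higher where it is labelled absent. Sdc1 mRNA was at 1.75, 1.21 and 1.51 in the WT libraries and 3.85, 3.81 and 4.12 in the libraries labelled Sdc1-/- (log2 fold change 0.99; limma, adjusted p = 1.2e-04), and every direction in this text is that of the labels. According to the study, the knockout mice carry a disrupted signal peptide sequence in this gene. Whether this allele keeps its mRNA was not tested, and where reads fell along the gene was not analysed here. The 4 Y-linked genes Ddx3y, Eif2s3y, Kdm5d and Uty summed to 0.28 to 0.31 in WT and 68.1 to 78.4 in Sdc1-/-. The sex of the cells and the group therefore cannot be told apart, for the X-linked Gata1 included. Libraries of a group correlated at r = 0.993 to 0.996 and libraries of different groups at 0.968 to 0.972 across tested genes, which are not independent replicates.

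Over the 6 libraries the genes most like Gata1, among 8965 with a mean level of at least 5, were Gpr137 (Pearson r = 0.997), Srebf2 (0.996) and R3hcc1 (0.996). For Gata2 they were Aimp2 (0.998), Dnaaf5 (0.991) and Wdr81 (0.980). More genes followed Gata1, whose groups did not overlap, than Gata2, with 770 and 68 genes over r = 0.9. These are descriptions over 6 libraries that share their groups and scaling.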

How the data were processed

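RNA-seq libraries were prepared from 150 ng of RNA (stranded mRNA kit) and sequenced as single reads of 75 nt. The authors assigned reads to transcripts with kallisto (mm10; version and strand setting not given in the sources used here) and deposited, per gene and library, a signal: TPM rescaled between libraries. Depth is unknown, so no counting interval can be given. A further deposited table holds the authors' own sleuth 0.30.0 comparison (p, q and effect sizes) and was not used. Gene symbols matched for 35454 of 36083 genes, and 11369 genes were at 0 in all libraries. Gene positions came from GENCODE M21 on GRCm38.

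Levels were tested as log2(level + 1) with limma 3.58.1 (R 4.3.3) for genes with a mean of at least 1, fitted on group alone with a trend in the variance, and p-values were adjusted by Benjamini-Hochberg over all tested genes at 0.05. The script was tested on simulated data. Ratios and single genes used exact permutation tests over libraries (scipy 1.17.1). Alternatives were other pseudocounts (0.1, 0.5), no minimum mean or a minimum of 5, equal library sums, quantile normalization, a fit without the trend, a replicate block, and each library left out. The 10 members and all lists were chosen with earlier results of these data known. Named are the members and, from each list, the largest called rise, the largest called fall and the 2 highest means. Likeness was taken for Gata1 and Gata2 alone. A further marker list is not reported here.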

Additional observations from a re-analysis of the deposited data

How the results depend on the processing

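Over 14 alternatives the 10 members gave 140 results, of which 124 kept their direction and their side of the threshold, 7 lost the call, 4 gained it and 5 turned sign. The largest changes in counts came with equal library sums of 1000000. There 5290 genes (43.5%) were called higher in place of 3564 (29.3%), and 2367 (19.5%) lower in place of 3810 (31.3%). Of the members 6 were then called higher and 1 lower, a shift in the direction of the whole table. Gfi1b stood at 0.029, Runx1 at 0.093, Rbbp4 at 0.049 and Mta2 at 0.028. By construction that alternative multiplies each library by a constant. Gata1 was also called under quantile normalization (0.14, adjusted p = 0.0069), and the Gfi1b call was lost there (adjusted p = 0.21) and with no variance trend (adjusted p = 0.053), in limma.

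Leaving out a library in turn gave 3106 to 3368 genes called higher and 3369 to 3594 lower, with 3 members higher and 2 to 3 lower. The log2 fold change ran from -0.0067 to 0.094 for Gata2 and from -0.010 to 0.087 for Zfpm1, both lowest without WT replicate 2, and from -0.10 to 0.061 for Runx1. The difference in the log2 ratio of Gata1 over Gata2 ran from -0.017 to 0.063 and that of Zfpm1 over Gata1 from -0.067 to 0.0030. Of the other named genes, 354 of 362 results kept direction and side, and 7 of 224 list counts moved by more than 1.5 times.

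The shared replicate numbers of the groups were not shown to pair the libraries. Deviations from the group means correlated at 0.15, -0.0083 and 0.018 for numbers 1 to 3, and 3 of 6 libraries correlated best with their own number. With the replicate block 3653 genes were called higher and 3971 lower, with 3 members each way, and of the named genes the call changed for Rbbp4 alone, which was called lower (-0.099, adjusted p = 0.032, limma). Unknown depth and 3 libraries a group limit the precision of the smaller differences.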
